A study of Mus musculus with 6 samples.

Results

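The genes described here encode matrix proteases and their TIMP inhibitors in kidney endothelial cells (ECs). They were taken by symbol from the deposited table: Timp1, Timp2 and Timp3 (inhibitors), Mmp2, Mmp14 and Mmp15 (matrix metalloproteinases), Adamts1, Adamts4 and Adamts9 (ADAMTS proteases) and Pcsk5 (a proprotein convertase), which are 10 of the 55401 genes listed. Bulk RNA-seq was made of ECs sorted as CD31+ and CD45- cells from kidneys of 3 CTRL and 3 RbpjDEC mice, with 1 library per mouse. The RbpjDEC mice carried Cdh5CreERT2, a tamoxifen-activated Cre under the endothelial Cdh5 promoter, and 2 floxed alleles of Rbpj, which encodes the DNA-binding partner of activated Notch receptors. The CTRL mice were littermates that lacked Cre. All 6 mice were male, carried the floxed alleles and received tamoxifen (5 injections of 1.5 mg) at 8 weeks of age, and kidneys were taken 12 weeks after induction, with an age of 21 weeks on the labels. The Cdh5 promoter is active across EC types, so a difference between the groups is not tied to 1 vascular bed.

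Matrix metalloproteinases (MMPs) and ADAMTS proteases are zinc enzymes that cut collagens, proteoglycans and other proteins of the extracellular matrix. The MMPs are made as inactive precursors, and proprotein convertases remove the propeptide of the membrane-anchored MMPs and of many ADAMTS proteases. TIMPs bind the active site of these enzymes and block it. In vessels this system acts on the basement membrane, on growth factor release from the matrix and on the contact between ECs and mural cells. Messenger RNA levels, as measured here, do not give the activity of the enzymes.

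Total counts on genes ranged from 39649171 to 47726850 per library, so that 3 counts corresponded to 0.0633 to 0.0748 CPM (counts scaled to library size, here by edgeR's TMM method). CTRL 1 listed counts on 33764 genes and the other 5 libraries on 25629 to 26785. Whole-gene counts of Rbpj were 28.1, 29.7 and 29.8 CPM in CTRL and 28.8, 26.1 and 29.6 CPM in RbpjDEC (log2 fold change -0.05, adjusted p = 0.793), and counts over the whole gene do not show the floxed part alone. The EC markers Pecam1, Cdh5, Tek, Kdr, Tie1, Emcn, Erg, Flt1, Eng and Egfl7 summed to 21512 to 23652 CPM in CTRL and 19490 to 19811 CPM in RbpjDEC, and none of the 10 passed edgeR's test (the unadjusted p was under 0.05 for 5, of which 4 were lower). DESeq2 called 4 of them lower (Kdr, Emcn, Flt1 and Eng) and limma-voom none. Kdr, the most abundant, was at 5987 ± 307 CPM in CTRL and 4956 ± 43.8 CPM in RbpjDEC. The T cell genes Cd3e and Cd3d were at 0 in all libraries. In bulk RNA, fewer cells of a type and less RNA per cell cannot be told apart, and this applies to each value given here.

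The members spanned a wide range of levels, from a TIMP among the more abundant transcripts of these cells to another with few counts. Levels between genes were compared in CPM per kilobase (kb) of exon. Timp3 stood highest with a mean level of 378 CPM per kb over the 6 libraries, followed by Adamts1 (50.0), Mmp15 (25.03), Timp2 (10.9), Pcsk5 (5.19), Adamts9 (3.73), Mmp14 (3.54), Mmp2 (1.56), Adamts4 (1.53) and Timp1 (0.417). Within CTRL, the libraries of neighbours in this order overlapped for Adamts9 and Mmp14 alone. In RbpjDEC they overlapped for Pcsk5 and Adamts9. The lower end of the order turned over between the groups: in CTRL the lowest Mmp2 level (1.71 CPM per kb) was above the highest Adamts4 level (1.25), and in RbpjDEC the lowest Adamts4 level (1.62) was above the highest Mmp2 level (1.23).

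**Figure D1:**
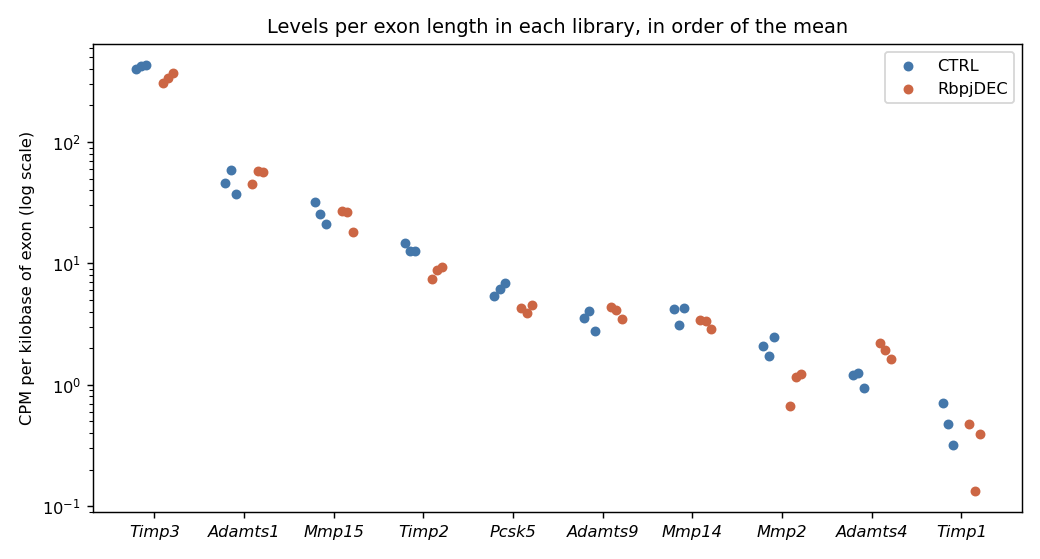
Level of each member in each library, in CPM per kilobase of exon on a log axis, with genes ordered by their mean over the 6 libraries (blue, CTRL; orange, RbpjDEC). Timp3 lies far above the rest at 378 CPM per kb, and the order of Mmp2 and Adamts4 differs between the groups.

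Summed per kb, the 3 inhibitors gave 431 ± 12.0 CPM per kb in CTRL and 348 ± 33.8 in RbpjDEC (SD, n = 3 each). The 3 MMPs gave 32.1 ± 5.36 and 28.2 ± 5.02, and the 3 ADAMTS proteases gave 51.6 ± 11.4 and 59.0 ± 6.57. The inhibitor sum is mostly Timp3, which made up 96.8 ± 0.396% of it in CTRL and 97.5 ± 0.0390% in RbpjDEC. The inhibitor sums of the groups did not overlap (418 to 442 in CTRL, 314 to 382 in RbpjDEC), and those of the MMPs and of the ADAMTS proteases did.

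All 10 members were among the 18438 genes tested, and 2 fell in RbpjDEC: Timp2 and Pcsk5. A gene was called where its p from the quasi-likelihood test of edgeR, adjusted over all tested genes by the Benjamini-Hochberg method, was under 0.05, and each adjusted p given here is of this kind unless another tool is named. None rose past the threshold. Over all tested genes, 0.559% were called lower, 0.575% higher and 1.13% in either direction. At an unadjusted p under 0.05, 4 members were lower (Timp2, Timp3, Mmp2 and Pcsk5) and 1 was higher (Adamts4), against 8.62% and 8.88% of tested genes. The same 5 genes were those whose libraries did not overlap between the groups, 4 lower and 1 higher, against 11.6% and 11.4% of tested genes. The log2 fold change of RbpjDEC against CTRL was below 0 for 7 members and above 0 for 3, with a median of -0.28 against 0.01 over all tested genes. The 3 above 0 were the ADAMTS proteases, while the 3 inhibitors, the 3 MMPs and Pcsk5 lay below 0 (Mmp15 above 0 without CTRL 1 or RbpjDEC 3). DESeq2's Wald test called the same 5 genes (4 lower, 1 higher), and limma-voom called Timp2 and Pcsk5.

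**Figure D2:**
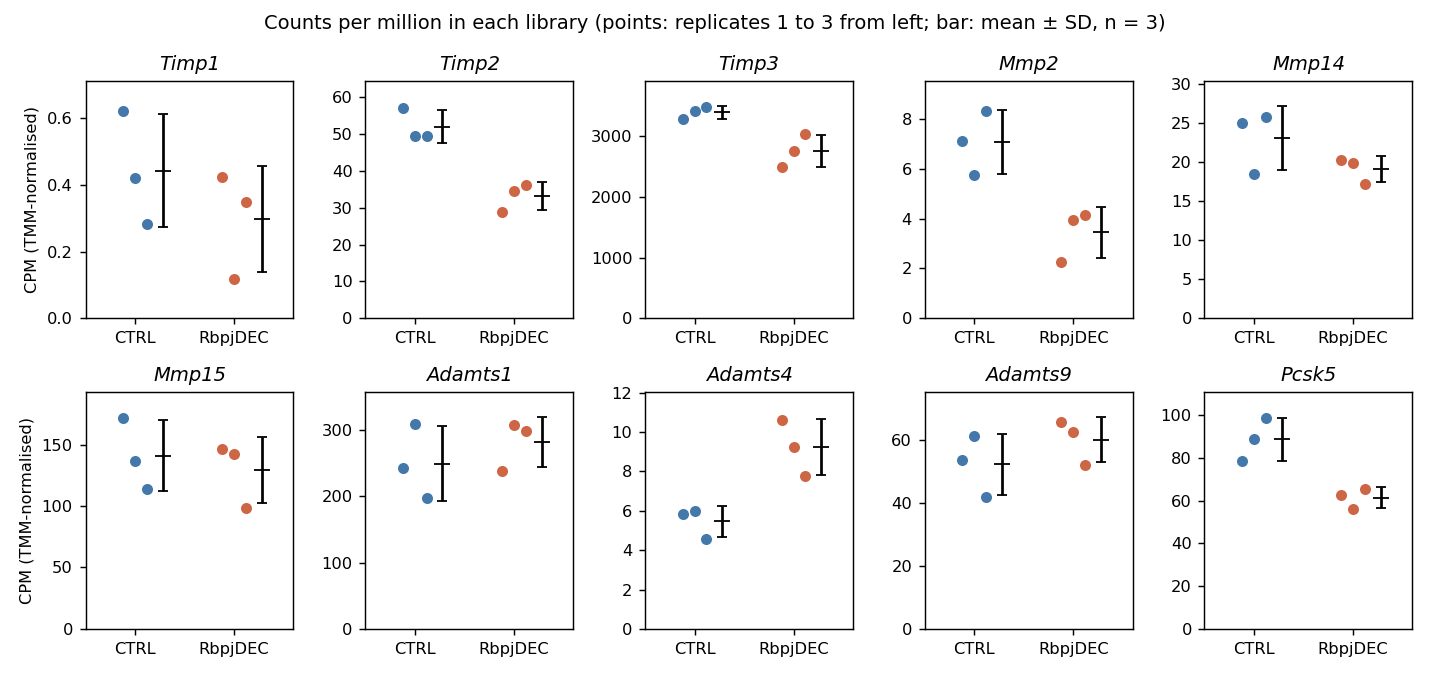
TMM-normalised CPM of the 10 members in each library, with axes from 0 and black bars for mean ± SD (n = 3 mice per group, replicates 1 to 3 from the left). Timp2, Timp3, Mmp2 and Pcsk5 lie lower in all 3 RbpjDEC libraries than in all 3 CTRL libraries, Adamts4 lies higher, and the other 5 overlap.

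Timp2, a secreted inhibitor that blocks MMPs and also joins membrane-anchored Mmp14 in the activation of the Mmp2 precursor, fell in RbpjDEC. Its level was 57.2, 49.5 and 49.5 CPM in CTRL 1 to 3 and 28.8, 34.4 and 36.2 CPM in RbpjDEC 1 to 3. All RbpjDEC libraries were below all CTRL libraries, by 36.4% in the group mean (52.1 ± 4.40 against 33.1 ± 3.82 CPM, SD, n = 3). The difference on the log2 scale was -0.65 (SE 0.10, 95% interval -0.87 to -0.43, adjusted p = 0.0150). The call was lost without CTRL 1 (adjusted p = 0.0574), CTRL 3 (0.0687) or RbpjDEC 1 (0.0742), while the log2 fold change stayed between -0.72 and -0.56 whichever library was left out. Timp2 (ENSMUSG00000017466.9) lies on the minus strand of chr11:118301069-118355740 (GRCm38). Cep295nl lies within an intron of it on the same strand and shares no exon bases with it.

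Timp3, the matrix-bound inhibitor that blocks ADAMTS and ADAM proteases as well as MMPs, had the largest counts of the group, between 112006 and 162224 per library. It stood at 3278, 3425 and 3490 CPM in CTRL and 2496, 2755 and 3033 CPM in RbpjDEC. The groups did not overlap, but the RbpjDEC libraries were spread over a wider range (2762 ± 268 CPM) than those of CTRL (3398 ± 108 CPM, SD, n = 3). The log2 fold change was -0.30 (SE 0.0864, 95% interval -0.49 to -0.11, adjusted p = 0.109), so the gene did not pass. It passed without RbpjDEC 3 (adjusted p = 0.0384) and had an adjusted p of up to 0.370 without each of the others. Timp3 (ENSMUSG00000020044.13, plus strand of chr10:86300372-86349506) lies inside Syn3, a gene of the opposite strand, and shares 1733 exon bases with it. Syn3 was at 24.1 CPM in CTRL and 21.4 CPM in RbpjDEC (adjusted p = 0.468), far below Timp3. The strand setting of the counting is not given in the sources used here.

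Timp1, the inhibitor known to be induced by cytokines and injury, was near the lower limit of the measurement. It had 25, 20 and 12 counts in CTRL and 19, 5 and 14 in RbpjDEC, or 0.284 to 0.622 and 0.119 to 0.423 CPM. These ranges overlapped, and the log2 fold change of -0.57 had a 95% interval from -1.83 to 0.70 (adjusted p = 0.656). The interval holds moderate changes in either direction, and no change of Timp1 was detected. The gene (ENSMUSG00000001131.11, plus strand of chrX:20870166-20874735) lies inside Syn1 of the opposite strand without shared exon bases.

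Among the MMPs, Mmp2 (gelatinase A), which cuts basement membrane collagen, had the lowest level and the log2 fold change farthest from 0, although it did not pass the test. Its level was 7.09, 5.76 and 8.33 CPM in CTRL and 2.25, 3.93 and 4.14 CPM in RbpjDEC. The highest RbpjDEC library was below the lowest CTRL library, and the group means of 7.06 ± 1.28 and 3.44 ± 1.04 CPM (SD, n = 3) differed by -51.3%. The log2 fold change was -1.04 (SE 0.243, 95% interval -1.57 to -0.51, adjusted p = 0.0660). The adjusted p was under the threshold without CTRL 2 (0.0398) or RbpjDEC 3 (0.0344) and in DESeq2 (0.0052), and was up to 0.227 when another library was left out.

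Mmp14, the membrane-anchored protease that activates the Mmp2 precursor, was at 25.02, 18.4 and 25.8 CPM in CTRL and 20.3, 19.9 and 17.2 CPM in RbpjDEC. CTRL 2 lay among the RbpjDEC libraries, and the log2 fold change was -0.27 (SE 0.132, 95% interval -0.56 to 0.02, adjusted p = 0.315). Mmp15, another membrane-anchored MMP and the most abundant of these 3, ranged from 114.2 to 171.7 CPM in CTRL and from 98.6 to 146.5 CPM in RbpjDEC. The groups overlapped widely. Its log2 fold change of -0.12 (SE 0.209, 95% interval -0.64 to 0.39, adjusted p = 0.800) turned to 0.04 without CTRL 1 or without RbpjDEC 3. As Timp2 and Mmp14 act together on Mmp2, their ratio per kb was computed for each library. It was 3.49, 4.12 and 2.94 in CTRL and 2.18, 2.65 and 3.22 in RbpjDEC, and the ratio of RbpjDEC 3 lay within the CTRL range.

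**Figure D3:**
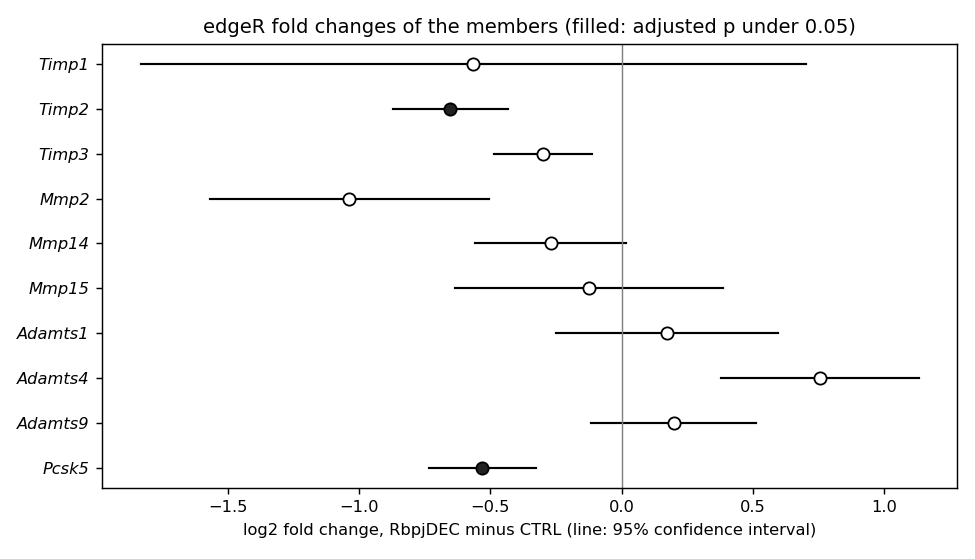
Log2 fold change of RbpjDEC against CTRL for each member in edgeR's quasi-likelihood fit, with 95% confidence intervals (filled, adjusted p under 0.05). Timp2 at -0.65 and Pcsk5 at -0.53 passed, Mmp2 at -1.04 and Adamts4 at 0.76 lay farther from 0 with wider intervals, and Timp1 had the widest interval.

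The 3 ADAMTS members had fold changes above 0, and for Adamts4 alone the groups did not overlap. Of the other ADAMTS proteases tested, 4 had fold changes below 0 and 6 above. Adamts4 cuts the proteoglycans aggrecan and versican. It was at 5.83, 6.00 and 4.54 CPM in CTRL and 10.6, 9.24 and 7.78 CPM in RbpjDEC, with means of 5.45 ± 0.794 and 9.22 ± 1.43 CPM (SD, n = 3), a difference of 69.0%. In log2 the difference was 0.76 (SE 0.173, 95% interval 0.38 to 1.13, adjusted p = 0.0602). The adjusted p was under the threshold without CTRL 2 (0.0474) or RbpjDEC 3 (0.0270) and in DESeq2 (0.0130), and was up to 0.252 without another library. Adamts4 (ENSMUSG00000006403.13) lies on the plus strand of chr1:171250421-171260637.

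Adamts1, a secreted protease of versican and aggrecan, was the most abundant protease of the group per kb. It was at 241.8, 308.8 and 196.7 CPM in CTRL and 238.6, 307.7 and 297.5 CPM in RbpjDEC. The ranges overlapped, with CTRL 3 the lowest library, and the log2 fold change of 0.17 (SE 0.177, 95% interval -0.25 to 0.60, adjusted p = 0.662) was within the spread between mice. Adamts9, another versican protease, was at 53.6, 61.3 and 42.0 CPM in CTRL and 65.6, 62.6 and 51.9 CPM in RbpjDEC. Its groups overlapped (log2 fold change 0.20, SE 0.140, 95% interval -0.12 to 0.51, adjusted p = 0.501). In both genes CTRL 3 was the lowest of the 6 libraries.

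Pcsk5, a proprotein convertase that cuts precursors of growth factors, receptors and proteases, was the other member to fall. Its level was 78.5, 88.6 and 98.7 CPM in CTRL and 62.4, 56.1 and 65.5 CPM in RbpjDEC. All RbpjDEC libraries were below all CTRL libraries, by 30.8% in the group mean (88.6 ± 10.1 against 61.3 ± 4.83 CPM, SD, n = 3). This was a log2 fold change of -0.53 (SE 0.0933, 95% interval -0.73 to -0.33, adjusted p = 0.0239). Without CTRL 3, RbpjDEC 1 or RbpjDEC 2 the adjusted p was 0.108, 0.112 and 0.0990, with log2 fold changes between -0.61 and -0.45 over all libraries left out. Pcsk5 (ENSMUSG00000024713.16) lies on the minus strand of chr19:17432319-17837632.

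**Figure D4:**
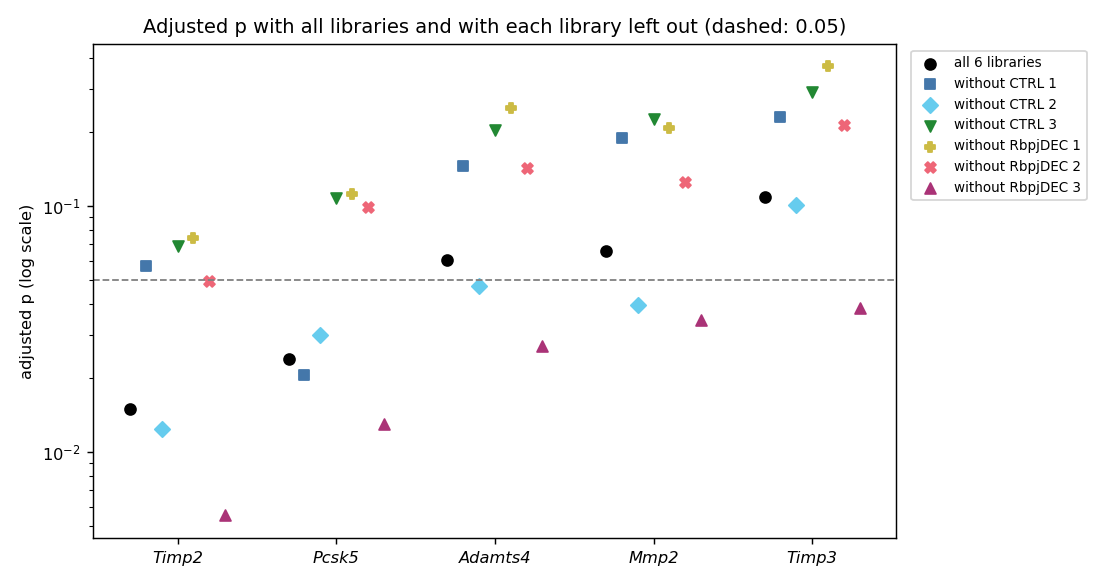
Adjusted p (edgeR, log axis) for the 5 members whose groups did not overlap, with all 6 libraries (black) and with each library left out in turn. Timp2 and Pcsk5 lie under the dashed threshold of 0.05 with all libraries and above it without 3 of them each, and all 5 genes lie under it without RbpjDEC 3.

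Because Rbpj encodes a DNA-binding factor, the 250 bases before the RefSeq start of each member were searched on both strands for its core motif TGGGAA. RefSeq promoters (GRCm38.p6) were matched for 8 of the 10 members, all except Mmp2 and Adamts4. By GENCODE, 203 bases of the Timp2 window, 40 of the Timp3 window and 28 of the Mmp15 window lie in exons of the gene itself, so for these genes the window is not wholly upstream of each annotated start. The motif was in 2 of the 8, Pcsk5 and Timp1, and in 21.6% of 32851 promoters of this length. The AP-1 motif TGANTCA was in 0 of the 8 and in 6.75% of all promoters. Both windows with the RBPJ motif are shown because they place it, in capitals, relative to the start that follows the last base. In Pcsk5 (chr19:17837633-17837882, minus strand) its first base was 68 bases before the start, and in Timp1 (chrX:20869916-20870165, plus strand) it was 158 bases before. A match of letters is not a binding site, and no binding was measured.
Pcsk5: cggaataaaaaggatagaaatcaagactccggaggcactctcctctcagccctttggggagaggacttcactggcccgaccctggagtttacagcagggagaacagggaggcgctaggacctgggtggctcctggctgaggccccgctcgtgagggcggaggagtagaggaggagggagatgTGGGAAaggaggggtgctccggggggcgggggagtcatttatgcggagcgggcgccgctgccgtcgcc
Timp1: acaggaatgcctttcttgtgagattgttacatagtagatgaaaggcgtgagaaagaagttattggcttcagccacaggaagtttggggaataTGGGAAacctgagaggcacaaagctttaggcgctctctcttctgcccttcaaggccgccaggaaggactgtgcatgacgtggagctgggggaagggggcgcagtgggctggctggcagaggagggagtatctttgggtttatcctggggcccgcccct

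The genes with a pattern most like those of the called members were found by the root mean square (RMS) distance between centred log2 CPM over the 6 libraries, among 10439 genes of at least 5 CPM. For Timp2 they were Gnai1 (RMS distance 0.0793), Adamts5 (0.0887) and Mapk8ip1 (0.107), and of these only Adamts5 passed edgeR's test (adjusted p = 0.0065). For Pcsk5 they were Fbln2 (0.0453), Specc1 (0.0461) and Prdm16 (0.0723), which all passed with log2 fold changes of -0.53, -0.59 and -0.58. Fbln2 encodes the matrix protein fibulin 2. These distances describe the 6 libraries and share the group difference of the genes chosen.

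The rest of the system was read from 8 lists of other MMPs, ADAMTS proteases, ADAMTS-like proteins, ADAM proteases, inhibitors, convertases, tolloid proteases with their enhancers, and substrates with clearance receptors. Of 83 genes, 53 were tested and 2 passed (3.77%): Adamts5 fell and Adamts6 rose. The 30 not tested reached at most 0.875 CPM, and Mmp1a and Mmp7 were at 0 in all libraries. The median log2 fold change of the 53 was -0.11, with 31 below 0, and unadjusted p-values were under 0.05 for 16 lower and 5 higher genes. Adamts5, a versican and aggrecan protease like Adamts4, was at 32.6, 33.4 and 33.3 CPM in CTRL and 18.0, 21.2 and 21.3 CPM in RbpjDEC. These libraries lay close together within each group (33.1 ± 0.427 and 20.2 ± 1.86 CPM), and the log2 fold change was -0.71 (SE 0.0928, adjusted p = 0.0065). Adamts5 passed under each alternative run, with its highest adjusted p, 0.04998, without RbpjDEC 1. Adamts6 was at 35.7 ± 1.30 CPM in CTRL and 46.3 ± 2.68 CPM in RbpjDEC (log2 fold change 0.37, SE 0.0794, adjusted p = 0.0487). This call was lost under another scaling (adjusted p = 0.0511), in limma-voom (0.0571), with the replicate number as a block (0.0609) and without CTRL 1 (0.160), CTRL 3 (0.184), RbpjDEC 1 (0.219) or RbpjDEC 2 (0.130).

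No gene of the other 7 lists passed edgeR's test, while DESeq2 called 4 lower (Fn1, Bgn, Lrp1 and Pcolce) and limma-voom 1 (Lrp1). Of the other MMPs (8 of 20 tested), the membrane-anchored Mmp16 had a log2 fold change of -0.59 (4.60 against 3.05 CPM, adjusted p = 0.145) and Mmp17 of -0.37 (19.1 against 14.8 CPM, adjusted p = 0.177). Of the ADAM proteases (9 of 11 tested), Adam17, the sheddase that Timp3 inhibits, was at 96.6 ± 1.87 CPM in CTRL and 84.4 ± 2.13 CPM in RbpjDEC (log2 fold change -0.19, adjusted p = 0.152), and Adam9 was at 90.7 and 78.9 CPM (-0.20, adjusted p = 0.204). Adam17 and Adam9 were lower in all 3 RbpjDEC libraries by a small amount. Fold changes of the ADAM list lay below 0 for 6 and above 0 for 3, among them Adam19 at 41.3 ± 10.7 and 71.6 ± 19.7 CPM (0.80, adjusted p = 0.246, groups overlapping). The other MMPs split 4 and 4, with Mmp11 at 42.7 ± 8.82 and 81.9 ± 43.7 CPM (0.94, adjusted p = 0.403). Of the other inhibitors (4 of 7 tested), Reck, a membrane-anchored inhibitor of MMPs, was at 47.1 and 41.6 CPM (-0.18, adjusted p = 0.332) and Spock2 was at 3.50 and 2.20 CPM (-0.67, adjusted p = 0.186). Of the other convertases (5 of 8 tested), Furin, which activates membrane-anchored MMPs, was at 170 ± 1.80 and 150 ± 3.14 CPM (-0.18, adjusted p = 0.165), and Pcsk6, the closest relative of Pcsk5, was at 3.75 ± 1.14 and 1.74 ± 0.561 CPM (-1.10, adjusted p = 0.104). Pcsk6 had the lower level of this pair.

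Of the tolloid list (4 of 5 tested), Bmp1, the procollagen C-proteinase, was at 57.7 ± 6.70 CPM in CTRL and 75.1 ± 7.72 CPM in RbpjDEC (log2 fold change 0.38, adjusted p = 0.0900). Pcolce, which enhances that cleavage, was at 5.03 ± 1.42 and 2.59 ± 0.292 CPM (-0.95, adjusted p = 0.0820). The enzyme and its enhancer thus had fold changes of opposite sign, without overlap between the groups in either. Among ADAMTS-like proteins (6 of 7 tested), Thsd4 was at 27.3 and 21.0 CPM (-0.38, adjusted p = 0.132) and Adamtsl5 at 11.2 and 7.08 CPM (-0.66, adjusted p = 0.164). This list split 3 and 3, with Papln at 7.60 ± 1.44 and 10.99 ± 2.81 CPM (0.53, adjusted p = 0.194). Among substrates and clearance receptors (7 of 9 tested), Lrp1, the endocytic receptor that removes TIMP and protease complexes, was at 38.5, 25.2 and 31.3 CPM in CTRL and 11.4, 9.86 and 18.2 CPM in RbpjDEC (-1.27, adjusted p = 0.0922). The proteoglycan biglycan (Bgn) was at 199 ± 31.8 and 148 ± 10.8 CPM (-0.42, adjusted p = 0.0982).

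The summed markers of mural and stroma cells were lower in RbpjDEC along with the lower members. The 10 mural markers, which mark smooth muscle cells and pericytes, summed to 87.6 to 114 CPM in CTRL and 36.1 to 58.4 CPM in RbpjDEC. Of 9 tested, 3 fell (Acta2 by 1.30, Myh11 by 1.08 and Rgs5 by 0.88 on the log2 scale), 8 were lower at an unadjusted p under 0.05, and the median log2 fold change was -1.15. DESeq2 called 7 of them lower, and limma-voom 2, without Rgs5 (adjusted p = 0.0599). The edgeR call of Rgs5 was also lost with library size alone (adjusted p = 0.0553) and with a filter of 1 CPM in 3 libraries (0.0523), and that of Myh11 with this filter (0.0506). Acta2 and Myh11 passed in 3 and Rgs5 in 2 of the 6 fits that left out a library, and without RbpjDEC 1 their adjusted p-values were 0.154, 0.106 and 0.186. The 8 stroma markers summed to 5.07 to 7.34 CPM in CTRL and 1.54 to 3.47 CPM in RbpjDEC. Of 4 tested, Pdgfra fell by 1.67 on the log2 scale (it passed in 2 of the 6 fits without a library, with an adjusted p of up to 0.186, and DESeq2 called 2 stroma genes), and Dpt was at 0 in all libraries. The log2 fold changes of the 9 tested mural genes ranged from -1.38 to -0.37. Those of Mmp2 (-1.04), Timp2 (-0.65) and Pcsk5 (-0.53) lay within that range and that of Timp3 (-0.30) outside it. The 4 tested stroma genes ranged from -1.83 to -0.68, and of these members Mmp2 alone lay within that range. The EC markers ranged from -0.41 to 0.22, and of these members Timp3 alone lay within that range. The part of mural and stroma cells in the lower values of Timp2, Timp3, Mmp2 and Pcsk5 was not tested.

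**Figure D5:**
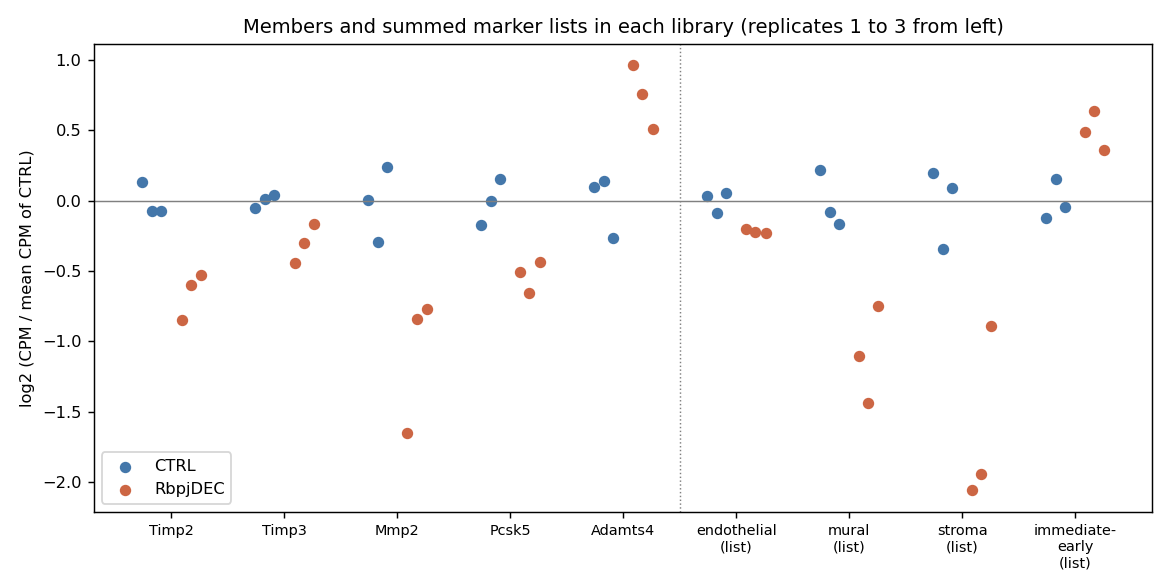
Log2 ratio of each library's CPM to the CTRL mean, for the 5 members without overlap and for the summed CPM of 4 gene lists (replicates 1 to 3 from the left). The mural and stroma sums are lower in all RbpjDEC libraries, and the immediate-early sum is higher in all. The endothelial sum is also lower in all, by a smaller amount (-0.23 to -0.20, against -0.09 to 0.05 in CTRL).

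Immediate-early genes respond within minutes to stress and to tissue dissociation. The 15 genes listed under this name, which also include Socs3 and the heat shock genes Hspa1a and Hspa1b, lay on the other side. Their sum was 6660 to 8065 CPM in CTRL and 9318 to 11271 CPM in RbpjDEC. All 15 had log2 fold changes above 0, with a median of 0.51, and 5 rose in edgeR's test (DESeq2 called 12 and limma-voom 6, without Junb and Ier2): Egr1 (0.66), Atf3 (0.55), Junb (0.51), Fos (0.46) and Ier2 (0.40). Egr1 passed in 5 of the 6 fits that left out a library, all but that without CTRL 3 (adjusted p = 0.0597), and the other 4 genes in 2, with an adjusted p of up to 0.184. Jun, the most abundant, was at 2741 ± 156 CPM in CTRL and 3597 ± 369 CPM in RbpjDEC (adjusted p = 0.0622). Adamts4 (0.76) was higher in the same libraries, and the part of this response in its value was not tested. The macrophage markers summed to 18.2 to 22.5 CPM in CTRL and 25.3 to 30.4 CPM in RbpjDEC, with Cd68 higher (log2 fold change 1.27) and Mrc1 lower (-1.56), both past the threshold with all libraries and in 3 and 2 of the 6 fits without a library, and Mrc1 not in limma-voom (adjusted p = 0.0527). Of the 5 tested, Cd68 alone had a fold change above 0, and the other 6 markers of the list summed to 5.91 to 15.6 CPM in CTRL and 3.07 to 5.31 CPM in RbpjDEC. The lymphocyte markers summed to 1.86 to 4.66 and 0.780 to 2.22 CPM, with Ptprc the most abundant (2.59 ± 1.38 and 0.956 ± 0.563 CPM). Tubule markers summed to 275 to 413 CPM in CTRL and 103 to 382 CPM in RbpjDEC and podocyte markers to 188 to 202 and 181 to 218 CPM, of which Synpo made up 183 ± 10.8 and 193 ± 19.7 CPM. No gene was called by edgeR in these last 3 lists. The tubule genes did not move together: Umod (log2 fold change -1.19), Slc12a1 (-1.25) and Aqp2 (-2.77) were lower without overlap. Slc12a3, the most abundant by its mean over all libraries, was at 139.6, 108.1 and 62.4 CPM in CTRL and 13.9, 11.5 and 64.3 CPM in RbpjDEC. Within RbpjDEC its mean (29.9 ± 29.8 CPM) was below that of Lrp2 (62.4 ± 57.8 CPM). Lrp2, Cubn and Slc34a1 were highest in RbpjDEC 3 (Lrp2 at 129 CPM there and 29.2 and 29.0 CPM in RbpjDEC 1 and 2). The part of tubule RNA in the members' values was not tested. Between 0 and 2 of the tested genes in each had an unadjusted p under 0.05, limma-voom called 0, and DESeq2 called 0 in the tubule and podocyte lists.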

How the data were processed

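The authors sorted the ECs, prepared stranded total RNA libraries (SMARTer Pico kit), sequenced them in 1 common run, trimmed the reads with Trim Galore 0.6.4, aligned them with STAR 2.6.1d to GRCm38 and deposited whole-number counts per gene (featureCounts of Subread 1.6.4, GENCODE annotation), without normalization. The deposited counts were scaled and tested with edgeR 4.0.16 under R 4.3.3 (TMM factors, filterByExpr, glmQLFit with robust estimation, glmQLFTest, genotype alone), with Benjamini-Hochberg adjustment over 18438 genes. The standard error was the log2 fold change divided by the square root of F. DESeq2 1.42.0 and limma 3.58.1 (voom) were alternatives. The fit was tested on simulated data. Exon lengths and positions came from an earlier GENCODE release on GRCm38. Mice are the replicates. The floor of 3 counts covers counting error only, and 95% intervals come from the fit.

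The members and lists were chosen with earlier results of these data known. Named were all members, in each other list of the system the genes past the threshold or else the 2 with the smallest p, for each called member the 3 genes nearest in pattern, and in each marker list the called genes and the most abundant one. Single tubule genes other than Slc12a3, Adam19, Mmp11, Papln and genes called by another tool alone were named after their values were seen. Some genes of the lists are in more than 1 list (Dcn). Results that need certain genes are not reported here.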

Additional observations from a re-analysis of the deposited data

How the results depend on the processing

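The members called lower and higher were 2 and 0 under DESeq2's size factors in edgeR, library size alone, a filter of 1 CPM in 3 libraries (which removed Timp1) and limma-voom. Without a filter on low counts they were 4 and 1 (all genes 1436, other genes of the system 16) and in DESeq2 4 and 1 (584 and 6). Other genes of the system called numbered 1 with DESeq2's size factors. With 1 library left out, members called lower ranged from 0 to 4, members called higher from 0 to 1, all genes from 21 to 700, and other genes of the system from 1 to 7. Timp1 had 5 to 25 counts per library and the widest interval of the members.

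Replicate numbers are shared by the groups, and the labels do not say whether they pair the mice. Deviations of same-numbered libraries correlated at 0.0231, 0.0092 and 0.0054. With so few libraries per group, these values cannot decide whether the mice were paired. With the replicate block, 3 members were lower (Timp2, Mmp2 and Pcsk5) and 1 higher (Adamts4), with 344 genes called in all and 4 other genes of the system (Adamts5, Adam19, Bmp1 and Lrp1, not Adamts6).

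Of the members' log2 fold changes under alternatives, 108 kept direction and side of the threshold, 6 lost the threshold, 13 passed it and 2 turned (Mmp15, at 0.040 without CTRL 1 and 0.037 without RbpjDEC 3, in a range of -0.26 to 0.040). On the TPM scale (levels per exon length scaled to a fixed sum per library) the median of all tested genes was 0.22 in place of 0.01, and log2 ratios were -0.43 for Timp2, -0.08 for Timp3, -0.31 for Pcsk5 and 0.083 for Mmp15, all below that median, so the changed sign of Mmp15 follows the shift of all genes. Of the genes called, 159 of 241 were higher with library size alone and 106 of 209 with TMM. The cause of these differences was not tested.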
